A study of Mus musculus with 16 samples.

Results

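Interferon-gamma-induced GTPases were examined in T cells from mouse melanoma. The 10 genes were Gbp2, Gbp3, Gbp4, Gbp5, Gbp6, Gbp7 and Gbp9 of the guanylate-binding protein (GBP) family and Igtp, Irgm1 and Iigp1 of the immunity-related GTPase (IRG) family. They were chosen by gene name, and each matched 1 of the 55450 rows of the count table. Total RNA of CD4+ and CD8+ tumor-infiltrating lymphocytes (TILs) from subcutaneous B16F10 tumors, a melanoma line of C57BL/6 mice, was sequenced in 4 groups: WT CD4+, Sirt2-/- CD4+, WT CD8+ and Sirt2-/- CD8+ TILs, with 4 libraries in each. WT mice were C57BL/6J, and Sirt2-/- mice carried the germline allele of B6.129-Sirt2tm1.1Fwa/J, so that host cells other than T cells also lacked Sirt2, a deacetylase. The tumor cells came from the same line in all groups, and no agent is named for any group. The study's methods give an age of 7 to 8 weeks for its mice. For tumors in general the study's methods describe enrichment of T cells with magnetic beads, and how CD4+ and CD8+ cells were then separated for sequencing is not given in the sources used here. The labels do not say whether a CD4+ and a CD8+ library of the same number came from 1 mouse. The comparisons asked how the genotypes differed within each cell type, and how the cell types differed within each genotype.

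Interferon-gamma binds a receptor made of Ifngr1 and Ifngr2, and the receptor-bound kinases Jak1 and Jak2 start a signal that acts on GAS elements in promoters and induces Irf1. Type I interferon acts largely on ISRE elements, to which Irf9 binds. GBPs are large, dynamin-related GTPases that assemble on the membranes of vacuoles with pathogens and of cytosolic bacteria. Among the IRG proteins, Igtp and Irgm1 belong to a regulatory class that keeps effector proteins such as Iigp1 off the cell's own membranes. T cells respond to interferon-gamma as well as secreting it.

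Promoters of 6 of the 10 genes were taken from RefSeq (GRCm38.p6), as 7 windows that reach from upstream of a start site to just past it, since Gbp3 has 2 start sites. No window of Gbp4, Gbp6, Gbp9 or Iigp1 was used. The counts of windows with matches therefore say nothing of the promoters of these genes. Stretches of these are shown for their matches to elements through which interferons act. They run 5′ to 3′ on the gene's strand, and capitals mark matches to GAS (TTCNNNGAA, a pattern that reads the same on both strands) or to ISRE (GAAA, any 2 bases and GAAA, searched on both strands, so that TTTC, any 2 bases and TTTC also counts).
Gbp5 (chr3:142496684-142496899, + strand): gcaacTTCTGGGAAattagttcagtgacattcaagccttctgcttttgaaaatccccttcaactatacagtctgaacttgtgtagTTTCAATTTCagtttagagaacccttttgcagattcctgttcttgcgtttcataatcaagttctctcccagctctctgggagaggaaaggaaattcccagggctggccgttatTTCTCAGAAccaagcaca
Gbp7 (chr3:142530215-142530307, + strand): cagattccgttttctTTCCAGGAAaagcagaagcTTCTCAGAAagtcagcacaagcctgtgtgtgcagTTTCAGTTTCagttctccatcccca
Gbp3 (chr3:142559984-142560025, + strand): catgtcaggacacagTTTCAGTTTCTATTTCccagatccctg
Gbp2 (chr3:142620599-142620618, + strand): tttagTTTCACTTTCactgt
Igtp (chr11:58199496-58199546, + strand): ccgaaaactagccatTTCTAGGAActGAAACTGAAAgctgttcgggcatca
Irgm1 (chr11:48871430-48871455, - strand): ttcaaGAAATAGAAACCGAAActgat

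An ISRE match stood in 6 of the 7 windows and in 3.44% of all 32851 RefSeq promoter windows. GAS matches were found in 3 windows (8.3% of all windows), those of Gbp5, Gbp7 and Igtp, and these 3 windows also held an ISRE match, which 0.454% of all windows did. In Gbp5 the matches lay far apart, with a GAS starting 245 bases before the start site, an ISRE at 165 bases and a second GAS at 52 bases. In Gbp7 a pair of GAS matches started 106 and 87 bases before the start site and the ISRE 53 bases before it. In Igtp the GAS (45 bases) and the ISRE (34 bases) were neighbours. Gbp3 and Irgm1 each held 2 overlapping ISRE matches, and Gbp2 held 1. GENCODE M21 starts the first exons of Gbp2 and Irgm1 further upstream, so that their matches lie inside an annotated exon, and for these genes only the matches with 5 bases on each side are shown. A match is a description of these letters and says nothing of binding in these cells.

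**Figure D1:**
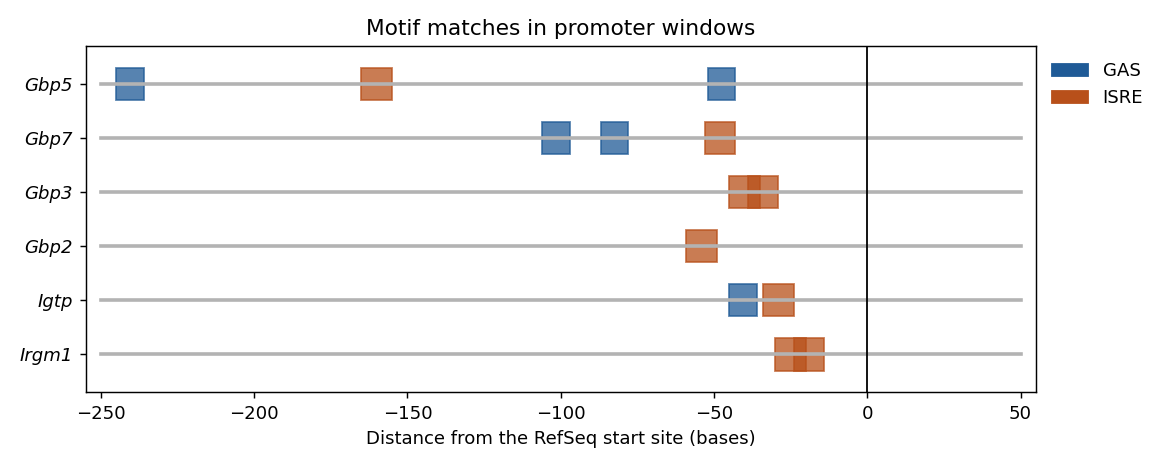
Positions of GAS (blue) and ISRE (orange) matches in promoter windows of 6 members. The x axis is the distance from the RefSeq start site in bases, and each grey line is 1 window. In Gbp7, Gbp3, Gbp2, Igtp and Irgm1 the ISRE matches started within 59 bases of the start site, and in Gbp5 165 bases before it.

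GBP genes lay in 2 clusters. On chromosome 3 were Gbp5 (chr3:142493978-142522344), Gbp7 (chr3:142530342-142550149), Gbp3 (chr3:142560026-142573209) and Gbp2 (chr3:142620602-142638008), all on the + strand. On chromosome 5 were Gbp9 (chr5:105077630-105139539), Gbp4 (chr5:105115767-105139586) and Gbp6 (chr5:105270702-105293698), all on the - strand. Irgm1 (chr11:48861968-48871683, - strand) and Igtp (chr11:58199556-58207591, + strand) lay on chromosome 11 and Iigp1 on chromosome 18 (GENCODE M21, GRCm38). Counts of near-identical relatives are uncertain where reads could be split or dropped. For Gbp6, 64.5% of its 100-base stretches also occurred in transcripts of other genes, chiefly Gm43302, with which it shares 29% of its exon bases, and its values are therefore uncertain. The share was 10% for Gbp7 (the pseudogene Gm43802), 5.16% for Igtp (Irgm2) and at most 1.65% for the other 7 members.

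Total counts per library were 28000949 to 62407851. In 3 libraries (Sirt2-/- CD4+ replicate 4, WT CD4+ replicate 1 and WT CD8+ replicate 1) only 8169 to 14411 genes were detected, against 17730 to 22138 in the other 13, and results are given below with and without them. Sirt2 stood at 0 to 12.2 CPM (counts scaled to library size) in the 8 Sirt2-/- libraries and at 33.4 to 75.6 CPM in the 8 WT libraries. Its log2 fold change was -2.22 (SE 0.21, adjusted p = 0.00663) in CD8+ TILs and -2.60 (SE 1.26, adjusted p = 1) in CD4+ TILs (edgeR's quasi-likelihood test, two-sided, Benjamini-Hochberg adjustment). Cd4 was 384 to 620.2 CPM in CD4+ libraries and at most 4.93 CPM in CD8+ libraries, and Cd8a with Cd8b1 summed to 1462 to 2046 CPM in CD8+ and 14 to 74.9 CPM in CD4+ libraries, as labelled. The small amounts in the other cell type were mostly higher in Sirt2-/- libraries. Cd8a with Cd8b1 summed to 22.2 to 74.9 CPM in Sirt2-/- and 14 to 24.9 CPM in WT CD4+ libraries. Cd4 was 1.75 to 4.93 CPM in Sirt2-/- and 0 to 2.03 CPM in WT CD8+ libraries.

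The members were among the more abundant transcripts. Per length (CPM per kilobase of merged exon), they ranked between the 83.3rd percentile (Gbp6 in WT CD8+ TILs) and the 99.8th percentile (Gbp2 in Sirt2-/- CD4+ TILs) of the 29671 genes detected. Gbp2, which helps to lyse pathogen-containing vacuoles, had the highest mean level per kilobase in all 4 groups: 211 ± 126 in WT CD4+, 429 ± 100 in Sirt2-/- CD4+, 118 ± 62.1 in WT CD8+ and 316 ± 176 in Sirt2-/- CD8+ TILs (CPM per kilobase, mean ± SD, n = 4). Igtp was second in every group, at 69.0 to 176 CPM per kilobase. Gbp6 was last in every group, at 8.24 to 15.8 CPM per kilobase. In between, Gbp3, Gbp7 and Gbp4 came next, then Gbp9, Irgm1 and Iigp1, and then Gbp5. Neighbours in this order mostly overlapped: in WT CD4+ TILs Igtp (74.1 to 159), Gbp3 (97.9 to 110.4) and Gbp7 (84.4 to 104 CPM per kilobase) could not be told apart, and the lowest Gbp2 library (53.0) lay below all libraries of these 3. Gbp6 stood clear of Gbp5 in that group, with 5.99 to 12.4 against 25.2 to 33.3 CPM per kilobase, and in Sirt2-/- CD4+ TILs (8.09 to 19.2 against 36.5 to 82.7). In CD8+ TILs they overlapped, with 4.06 to 11.2 against 6.49 to 16.8 in WT and 10.4 to 18.4 against 17.0 to 42.2 in Sirt2-/- mice.

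**Figure D2:**
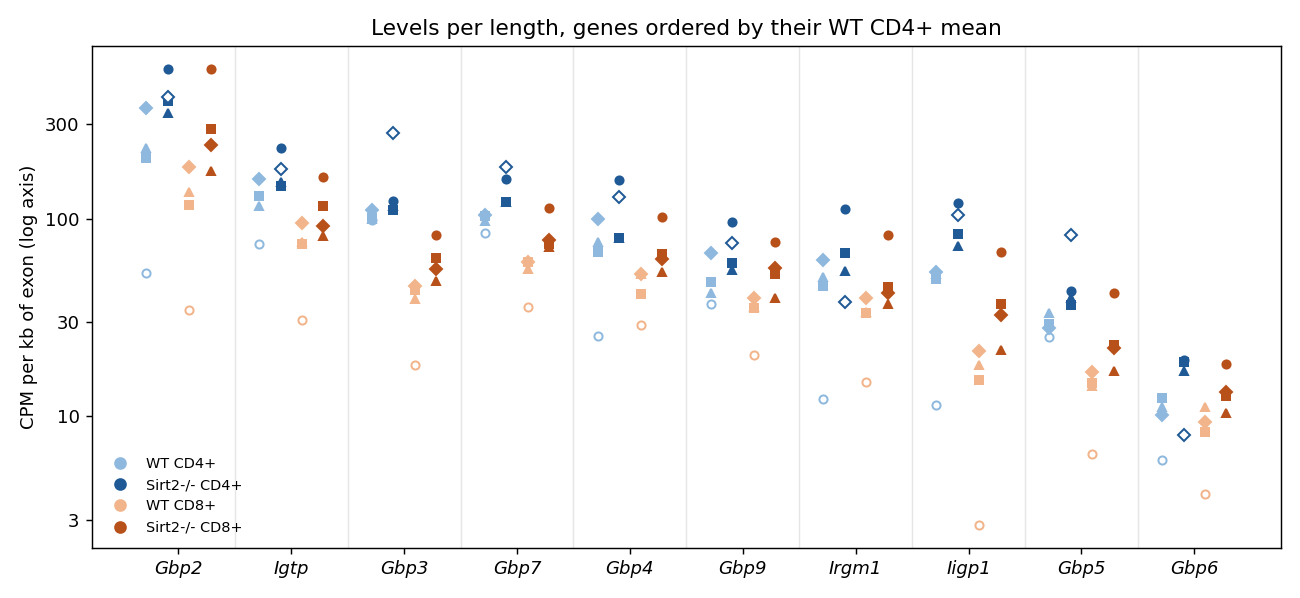
Levels per length of the 10 members in each library. The y axis is CPM per kilobase of merged exon on a log axis, genes are ordered by their WT CD4+ mean, colours are groups, symbols are replicate numbers, and open symbols are libraries with under 15000 genes detected. Gbp2 was the highest and Gbp6 the lowest by group mean in all 4 groups.

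In CD4+ TILs all 10 members had higher fitted levels in Sirt2-/- than in WT mice, by 1.47-fold (Igtp) to 2.27-fold (Iigp1), but none passed the test. The median log2 fold change of the members was 0.67, against -0.11 over the 15070 genes tested, of which 42% lay above 0. By edgeR 0 of 10 members were called at an adjusted p below 0.05, as was 0% of all genes, and every member's adjusted p was 1. DESeq2 and limma-voom also called 0 of 10. At an unadjusted p below 0.05 there were 5 higher members, Gbp5, Gbp7, Gbp9, Igtp and Iigp1, where 0.995% of all genes were. Here and below, fewer cells of a type and less RNA per cell cannot be told apart in bulk libraries.

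Iigp1, an effector IRG, differed the most. Its normalised counts were 696, 485, 422 and 606 CPM in Sirt2-/- CD4+ replicates 1 to 4 and 66.7, 287, 306 and 312 CPM in the WT replicates. Every Sirt2-/- library was above every WT library, and WT replicate 1 lay far below the other 3 WT libraries. Its log2 fold change was 1.18 (SE 0.42, adjusted p = 1, edgeR). Without the libraries of few genes, 1 of each genotype here, it was 0.83 (SE 0.17, adjusted p = 0.225, edgeR).

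Gbp7, linked to assembly of the phagocyte oxidase, had the smallest SE. It stood at 891, 683, 679 and 1021 CPM in Sirt2-/- CD4+ replicates 1 to 4 and at 474, 578, 543 and 583 CPM in WT replicates. The groups did not overlap, and Sirt2-/- replicates 1 and 4 lay above the other two. Its log2 fold change was 0.59 (SE 0.18, adjusted p = 1, edgeR). Gbp5, which promotes NLRP3 inflammasome assembly, had 284, 242, 262 and 549 CPM in Sirt2-/- and 167, 195, 221 and 185 CPM in WT replicates 1 to 4. Its groups did not overlap either, with replicate 4 far above the other Sirt2-/- libraries. The log2 fold change was 0.80 (SE 0.26, adjusted p = 1, edgeR), and 0.39 (SE 0.13, adjusted p = 0.788, edgeR) without the libraries of few genes. These 3 members, Iigp1, Gbp7 and Gbp5, were the ones whose groups did not overlap, as in 1.31% of all genes in this direction.

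Gbp2 and Gbp3 overlapped between genotypes. Gbp2 reached 1439, 986, 855 and 1037 CPM in Sirt2-/- CD4+ replicates 1 to 4 and 133, 511, 574 and 907 CPM in WT. One WT library, replicate 4, stood above the lowest Sirt2-/- library, and WT replicate 1 held less than any other CD4+ library. The log2 fold change was 1.02 (SE 0.47, adjusted p = 1, edgeR). Gbp3 had 400.3, 359, 380.0 and 888 CPM in Sirt2-/- and 319.7, 329, 325 and 361 CPM in WT replicates 1 to 4. Its difference came mostly from Sirt2-/- replicate 4, a library of few genes. The log2 fold change of Gbp3 was 0.60 (SE 0.27, adjusted p = 1, edgeR) with it and 0.21 without that library.

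The other 5 members overlapped between genotypes as well. Gbp4, reported to bind the transcription factor IRF7, ranged from 597 to 1172 CPM in Sirt2-/- and from 190.3 to 749 CPM in WT CD4+ TILs. Gbp9 ranged from 285 to 499.7 and from 190.3 to 348 CPM. Igtp ranged from 296 to 458 and from 149.9 to 322 CPM. For all 3 the lowest Sirt2-/- libraries stood among the WT libraries. Irgm1 ranged from 221 to 649 CPM in Sirt2-/- and from 71.0 to 358 CPM in WT, and its lowest Sirt2-/- library was replicate 4, which was the highest Sirt2-/- library for Gbp3, Gbp5 and Gbp7. Gbp6 also had its lowest Sirt2-/- value in replicate 4, 48.2 CPM, against 101 to 115 CPM in replicates 1 to 3 and 35.7 to 73.5 CPM in WT. Without the libraries of few genes its log2 fold change was 0.71 (SE 0.13, adjusted p = 0.156, edgeR). Then 4 members (Gbp5, Gbp6, Gbp7 and Iigp1) did not overlap and were higher, as in 5.55% of all genes, and the members' fold changes ran from 0.17 to 0.83 on the log2 scale, with none called.

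**Figure D3:**
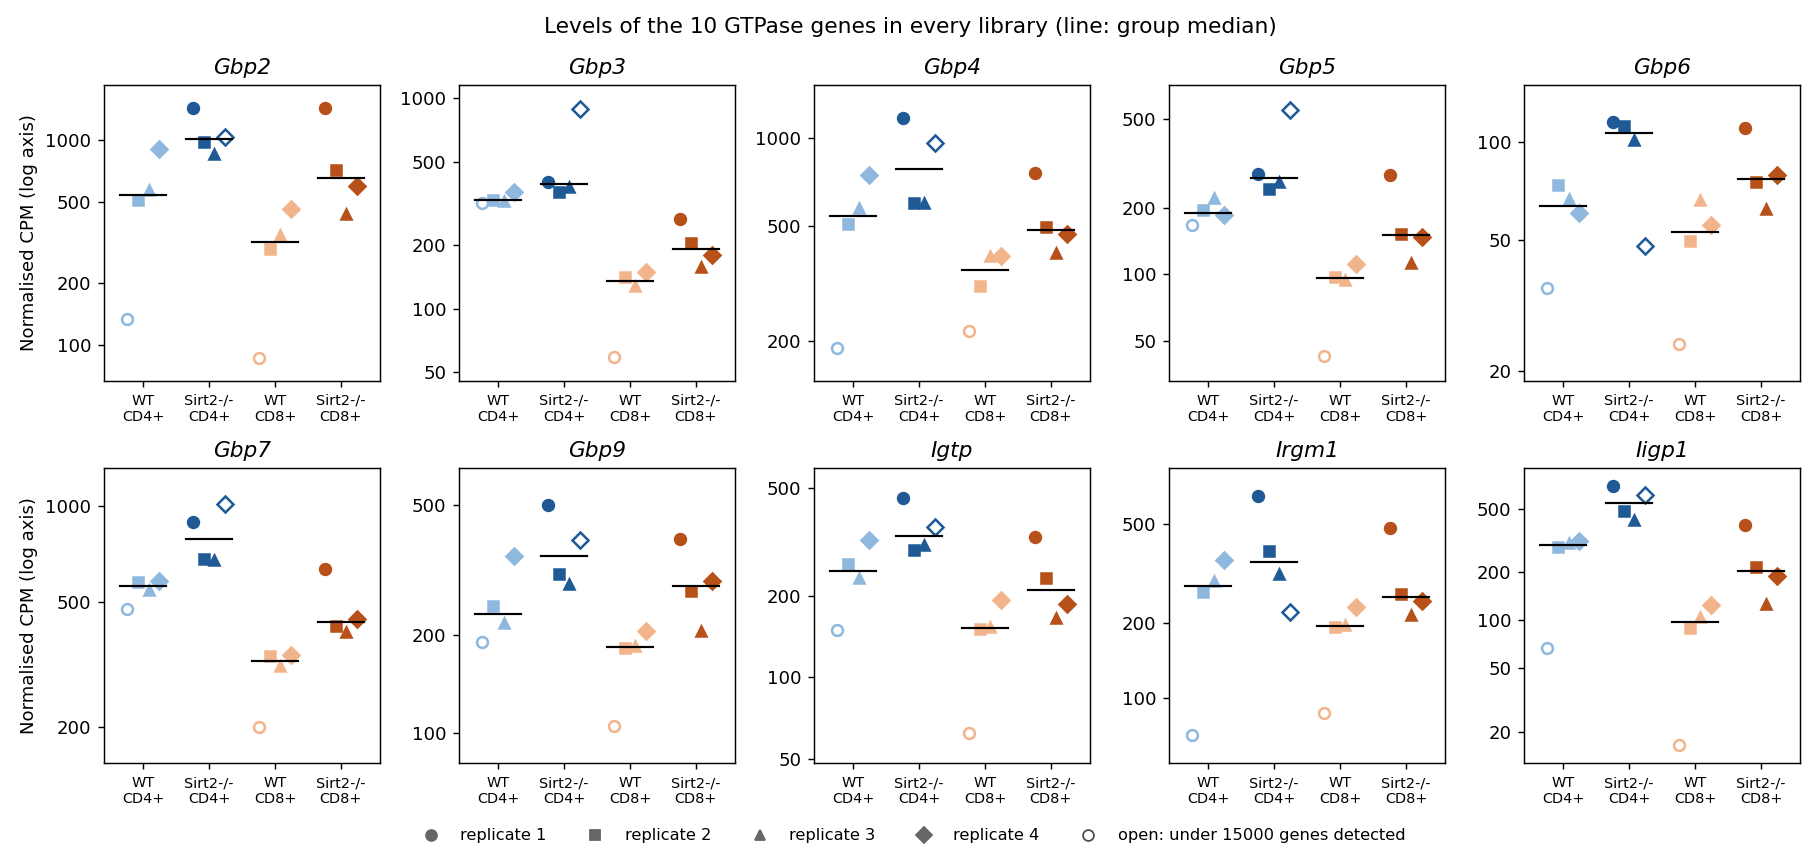
Normalised CPM of each member in the 16 libraries, on log axes with a scale of their own in each panel. Points are libraries, symbols are replicate numbers, open symbols are the 3 libraries with under 15000 genes detected, and lines are group medians. The median of Sirt2-/- libraries lay above that of WT libraries for all 10 members in both cell types, and WT replicate 1 was the lowest WT library in both.

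In CD8+ TILs all 10 members likewise had higher fitted levels in Sirt2-/- than in WT mice, by 1.59-fold (Gbp7) to 2.77-fold (Iigp1), and again none passed the test. Their median log2 fold change was 0.77, against 0.01 over 15302 genes, of which 51.9% lay above 0. All 10 had an unadjusted p below 0.05 and a higher level, as did 2.18% of all genes. After adjustment 0 of 10 were called by edgeR, DESeq2 or limma-voom, and the adjusted p was 0.986 for each (edgeR). Over all genes edgeR called 0.00654%, which was Sirt2 alone.

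Iigp1 and Gbp2 again differed the most. Iigp1 had 397, 216, 126 and 189.7 CPM in Sirt2-/- CD8+ replicates 1 to 4 and 16.5, 88.9, 105 and 125 CPM in WT. The groups stood apart by little, as the lowest Sirt2-/- library had 126 CPM and the highest WT library 125 CPM. Its log2 fold change was 1.47 (SE 0.52, adjusted p = 0.986, edgeR). Gbp2 had 1437, 714, 438 and 595 CPM in Sirt2-/- and 86.3, 296, 344 and 460.5 CPM in WT replicates 1 to 4. Here Sirt2-/- replicate 3 fell among the WT libraries, and replicate 1 of each genotype lay at opposite ends. The log2 fold change was 1.43 (SE 0.47, adjusted p = 0.986, edgeR).

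Gbp3, Gbp4, Gbp5 and Gbp7 were the other members whose genotypes did not overlap, which made 5 of 10 with Iigp1, against 1.74% of all genes. Gbp5 stood at 280.4, 153, 113 and 148 CPM in Sirt2-/- CD8+ replicates 1 to 4 and at 43.1, 97.7, 94.4 and 112 CPM in WT, with a log2 fold change of 1.0 (SE 0.31). Gbp7 stood at 636, 419.5, 402 and 439.8 CPM in Sirt2-/- and at 200.0, 338, 313 and 340.1 CPM in WT, with a log2 fold change of 0.67 (SE 0.19). In both genes replicate 1 was the highest Sirt2-/- and the lowest WT library, while the other 6 libraries lay between 94.4 and 153 CPM for Gbp5 and between 313 and 439.8 CPM for Gbp7. Gbp3 ranged from 157 to 268 CPM in Sirt2-/- and from 59.3 to 149 CPM in WT, and Gbp4 from 404 to 761 and from 218 to 394 CPM. Gbp6, Gbp9, Igtp and Irgm1 overlapped, with log2 fold changes of 0.71 to 0.78. For Gbp9 the lowest Sirt2-/- and the highest WT library were both at 205 CPM.

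Replicate 1 was extreme in both genotypes in CD8+ TILs. Among Sirt2-/- libraries it was the highest for 10 of 10 members and replicate 3 the lowest for 10 of 10, and among WT libraries replicate 1 was the lowest for 10 of 10. Without WT replicate 1, the one CD8+ library of few genes, the members' log2 fold changes were 0.47 to 1.13, 8 of 10 had an unadjusted p below 0.05 (666 of 15943 genes did, in either direction), and 5 of 10 did not overlap, as 2.59% of all genes in this direction. Leaving out replicate 1 of both genotypes, an alternative added after seeing the data, gave 0.22 to 0.74, again with 8 of 10 below 0.05 before adjustment (721 of 15646 genes) and 0 of 10 called. In CD4+ TILs the same step gave log2 fold changes of -3.23e-05 (Irgm1) to 0.79 (Gbp5), and 3 of 10 were below 0.05 before adjustment (132 of 15482 genes).

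Summed over the 10 members, levels were 6604, 4458, 4209 and 6080.4 CPM in Sirt2-/- CD4+ replicates 1 to 4 and 1798, 3254, 3355 and 4185 CPM in WT CD4+ TILs. In CD8+ TILs the sums were 5094, 3048, 2288 and 2822 CPM in Sirt2-/- and 902, 1849, 1977 and 2266 CPM in WT. In both cell types every Sirt2-/- library exceeded every WT library, and the closest pair was Sirt2-/- replicate 3 and WT replicate 4. Gbp2, Gbp4 and Gbp7, which had the most counts, weigh the most in these sums.

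Whether Sirt2 loss went with a larger change in one cell type than in the other was tested as an interaction, and none was detected. On the log2 scale the CD8+ minus CD4+ difference ran from -0.03 (Gbp4) to 0.40 (Gbp2) across the members, with CD8+ TILs the larger for 9 of 10 (58.2% of 17270 genes were positive) and a median of 0.16, against 0.14 over all genes. By edgeR 0 of 10 members and 0% of all genes were called, 0 of 10 members had an unadjusted p below 0.05 (1.98% of all genes did), and DESeq2 and limma-voom called 0 of 10. The 95% intervals were wide: for Gbp7, the narrowest, it was -0.48 to 0.65, and for Iigp1 -1.32 to 1.89.

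**Figure D4:**
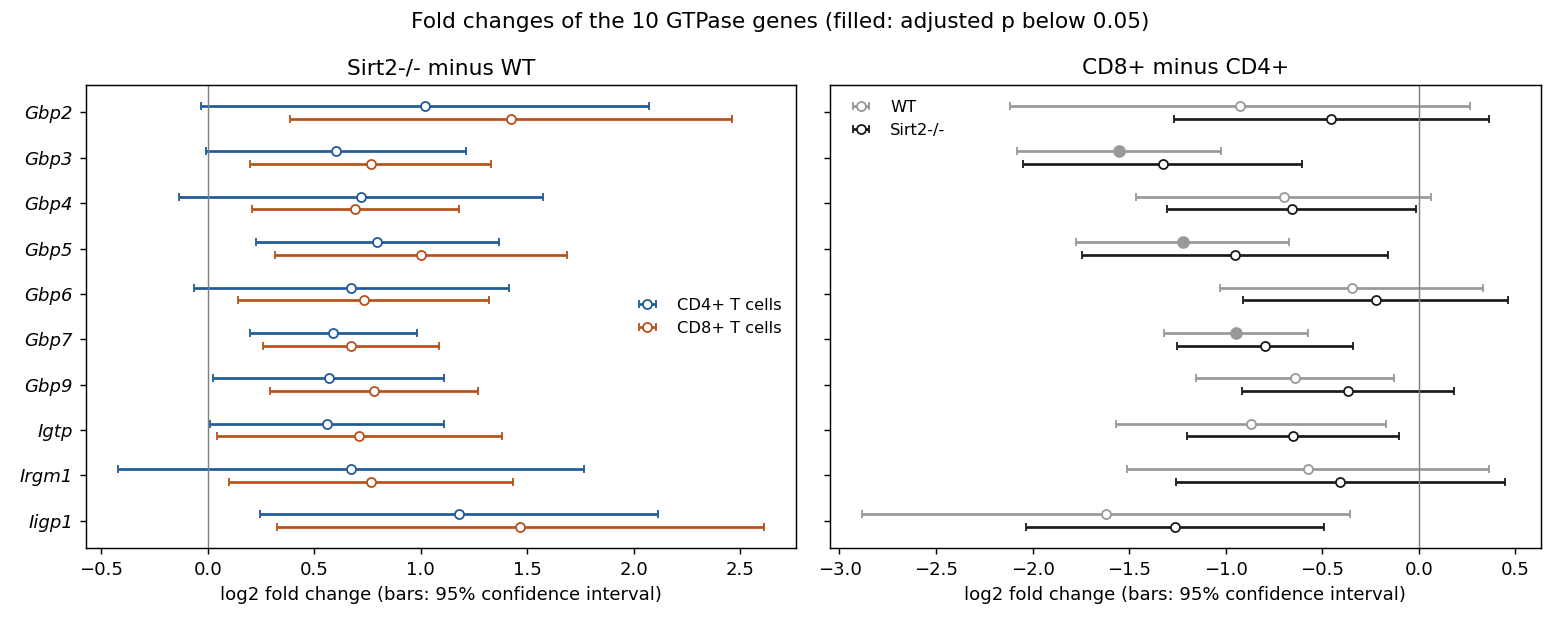
Log2 fold changes of the members with 95% confidence intervals (edgeR), for Sirt2-/- minus WT (left) and CD8+ minus CD4+ TILs (right). Filled points have an adjusted p below 0.05, which were Gbp3, Gbp5 and Gbp7 in the WT comparison of cell types, and the 10 estimates lay on 1 side of 0 in each of the 4 comparisons.

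In WT mice all 10 members had lower fitted levels in CD8+ than in CD4+ TILs, and 3 of them fell, passing the test. Gbp3 was at 59.3, 142, 128 and 149 CPM in CD8+ replicates 1 to 4 and at 319.7, 329, 325 and 361 CPM in CD4+ replicates, with a log2 fold change of -1.55 (SE 0.24, adjusted p = 0.00189, edgeR). Even the highest CD8+ library held less than 0.5 of the lowest CD4+ library. Gbp5 had a log2 fold change of -1.22 (SE 0.25, adjusted p = 0.00908, edgeR), from 167 to 221 CPM in CD4+ to 43.1 to 112 CPM in CD8+ TILs. Gbp7 had one of -0.95 (SE 0.17, adjusted p = 0.00431, edgeR), from 474 to 583 CPM to 200.0 to 340.1 CPM. Neither overlapped between the cell types, and all 3 genes lie in the chromosome 3 cluster, where the fourth, Gbp2, overlapped (133 to 907 CPM in CD4+, 86.3 to 460.5 CPM in CD8+ TILs; log2 fold change -0.93, SE 0.54, adjusted p = 0.338, edgeR).

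The 3 calls compare with 11.9% of all 14892 genes called (6.96% lower), and the 3 members without overlap with 10% of all genes in that direction. All 10 members had log2 fold changes below 0, from -1.62 (Iigp1) to -0.35 (Gbp6), with a median of -0.90, while 51.4% of all genes lay below 0 and their median was -0.02. An unadjusted p below 0.05 was reached by 6 of 10, and by 13.5% of all genes in this direction. Iigp1 had the largest estimate and missed the threshold (SE 0.57, adjusted p = 0.0996, edgeR). Its WT replicate 1 was low in both cell types, at 66.7 CPM in CD4+ and 16.5 CPM in CD8+ TILs. In replicates 2 to 4 it stood at 287 to 312 CPM in CD4+ and 88.9 to 125 CPM in CD8+ TILs. Without the libraries of few genes edgeR called 9 of 10 members lower, all but Gbp6 (adjusted p = 0.27), where 4394 of 15694 genes were called, and 9 of 10 no longer overlapped (20.4% of all genes). Without WT CD4+ replicate 1 alone it called 6, and 2767 of 15774 genes. DESeq2 on all libraries called 5 members and 2651 of 14892 genes, and limma-voom 10 members and 5481 of the 14892 genes. With the replicate number as a block, edgeR called 7 members and 1619 genes, though the labels do not say that the numbers pair the libraries.

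In Sirt2-/- mice the members again had lower estimates in CD8+ than in CD4+ TILs, from -1.33 (Gbp3) to -0.22 (Gbp6) on the log2 scale, and none was called by edgeR. The median was -0.65, against 0.16 over 15787 genes, of which 41.6% lay below 0 and 2.24% were called. At an unadjusted p below 0.05 there were 6 of 10, against 6.38% of all genes in this direction. DESeq2 called 3 members and 1339 genes, limma-voom 3 members and 4474 genes, and edgeR with the replicate number as a block 0 members and 108 genes. Gbp3 had 268, 206, 157 and 181 CPM in CD8+ replicates 1 to 4, against 400.3, 359, 380.0 and 888 CPM in CD4+ TILs, and a log2 fold change of -1.33 (SE 0.32, adjusted p = 0.0821, edgeR). Gbp7 had one of -0.80 (SE 0.20, adjusted p = 0.0934, edgeR) and Iigp1 one of -1.26 (SE 0.34, adjusted p = 0.115, edgeR). These 3 did not overlap between the cell types, as 6.22% of all genes did not. Without Sirt2-/- CD4+ replicate 4, the library with 8169 genes detected, Gbp3 (adjusted p = 0.00193, edgeR) and Gbp7 (adjusted p = 0.0133, edgeR) were called, with 4250 genes in all, and 3 members did not overlap (15.5% of all genes). Without Sirt2-/- CD8+ replicate 1, Iigp1 was the only member called (adjusted p = 0.0322, edgeR), where 139 of 16382 genes were called.

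The comparisons share libraries: each WT group and each Sirt2-/- group enters 2 of the 4 comparisons, so the lower CD8+ and the higher Sirt2-/- estimates are not independent of each other.

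Upstream of the members, the ligand and its receptor ran in opposite directions between cell types. Ifng itself was 9.81 ± 2.25 CPM in WT CD8+ and 2.73 ± 0.98 CPM in WT CD4+ TILs (mean ± SD, n = 4), and rose in CD8+ TILs by 1.78 on the log2 scale (SE 0.47, adjusted p = 0.0326, edgeR). Both receptor chains fell: Ifngr1 by 1.56 (SE 0.19, adjusted p = 0.00051, edgeR) from a mean of 1162 to 416 CPM, and Ifngr2 by 1.71 (SE 0.35, adjusted p = 0.00835, edgeR), from 22.4 to 7.14 CPM. In Sirt2-/- mice Ifngr1 also fell in CD8+ TILs, by 1.39 (SE 0.25, adjusted p = 0.0313, edgeR), and Ifng stood at 7.26 to 20.9 CPM against 0 to 3.40 CPM, without passing the test (adjusted p = 0.555, edgeR), nor did Ifngr2 (adjusted p = 0.998, edgeR). The level of Ifng did not pass the test between genotypes in either cell type (adjusted p = 1 and 0.986, edgeR), and it was at 0 in Sirt2-/- CD4+ replicate 4, the library in which Sirt2 too was at 0.

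Of 8 kinases and transcription factors of interferon signaling, 3 fell in WT CD8+ against WT CD4+ TILs: Jak2 (-0.89, SE 0.12), Stat2 (-0.90, SE 0.20) and Irf2 (-0.46, SE 0.13, all log2 fold changes). Of all genes 6.96% were called lower there. In Sirt2-/- mice Jak2 fell (-1.16, SE 0.14) and Irf8 rose (1.4, SE 0.19), where 2.24% of all genes were called. Irf1, an interferon-gamma target and a factor that binds ISRE-like elements, did not pass the test between genotypes: its mean was 289 against 216 CPM in Sirt2-/- and WT CD4+ TILs and 262 against 169.5 CPM in CD8+ TILs (log2 fold changes 0.42, SE 0.37, and 0.63, SE 0.19). In CD8+ TILs the Irf1 genotypes did not overlap, with 199 to 375 CPM in Sirt2-/- and 149 to 195 CPM in WT.

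None of the pathway lists had a gene called between genotypes by edgeR, so their counts are those of estimates. Of 11 other interferon-inducible GTPases, which include Irgm2, Tgtp1, Tgtp2, Gbp8, Gbp10 and Gbp11, 10 of 11 tested lay higher in Sirt2-/- mice in CD4+ TILs (median 0.58), as did 10 of 10 in CD8+ TILs (median 0.94). Unadjusted p below 0.05 was reached by 2 and 7 of them. All 12 antiviral genes induced mainly by type I interferon, such as Ifit1, Mx1 and Rsad2, lay higher in both cell types (medians 0.89 and 1.14), with 2 and 6 below 0.05 before adjustment. Of 16 other interferon-gamma targets tested, 10 lay higher in CD4+ TILs (median 0.07) and 16 in CD8+ TILs (median 0.31). Among the 5 ligand and receptor genes tested 2 and 4 lay higher (medians -0.05 and 0.41). The kinase and factor list had medians of 0.30 and 0.17, and the 4 inhibitors of signaling, Socs1, Socs3, Ptpn2 and Usp18, 0.41 and 0.42. The median of all genes was -0.11 and 0.01 in these comparisons, with 42% and 51.9% of them above 0. A higher level at an unadjusted p below 0.05 was reached by 0.995% and 2.18% of all genes (edgeR). Between cell types in WT mice, the other GTPases had 1 of 10 called, Gm4951, which fell by 3.11 (SE 0.91, adjusted p = 0.0484, edgeR), and the interferon-gamma targets 2 of 15, H2-D1 and Tap2, both lower. These counts were near the share of all genes, of which 11.9% were called and 6.96% were called lower. Socs3 (-0.78, SE 0.17) and Oas1a (-1.15, SE 0.32) were called lower too.

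**Figure D5:**
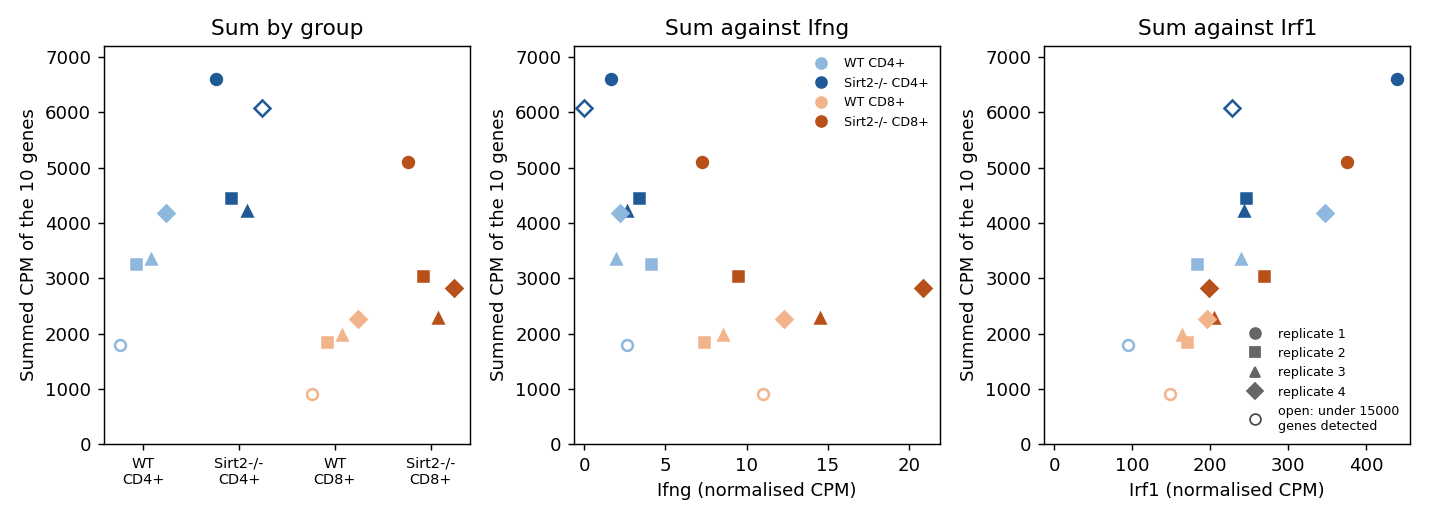
Summed CPM of the 10 members by group (left) and against the CPM of Ifng (middle) and Irf1 (right) in the same 16 libraries. Colours are groups, symbols are replicate numbers, and open symbols are libraries with under 15000 genes detected. CD8+ libraries held more Ifng, and their mean sums were 3313 (Sirt2-/-) and 1748 CPM (WT), against 5338 and 3148 CPM in CD4+ libraries.

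Across libraries of 1 cell type, the members' mean log2 CPM was compared with that of Irf1 and Ifng. For Irf1 Pearson's r was 0.87 (Spearman's rho 0.69) over the 8 CD4+ libraries and 0.86 (0.95) over the 8 CD8+ libraries, and without the 2 libraries farthest from the median Irf1 level it was 0.18 and 0.85, so in CD4+ TILs the value over 8 libraries depended on those 2. Without the libraries of few genes it was 0.80 (rho 0.83) over 6 CD4+ and 0.96 (rho 0.93) over 7 CD8+ libraries. For Ifng r was -0.39 (rho -0.60) and -0.09 (rho -0.02), and -0.32 and -0.49 without the 2 libraries farthest from its median. Without the libraries of few genes r for Ifng was -0.50 (rho -0.43) in CD4+ and -0.11 (rho 0.04) in CD8+ TILs. With the 2 farthest of these also left out it was 0.91 over 4 CD4+ and -0.27 over 5 CD8+ libraries, so its sign in CD4+ TILs depended on few libraries. These are descriptions: the libraries of a cell type share their normalization and hold both genotypes.

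The members moved together from library to library. Over 16 libraries the 45 pairs had a median r of 0.85, from 0.44 (Gbp3 with Gbp6) to 0.98 (Igtp with Iigp1). After group means were taken off, the median was 0.76, from 0.13 (Gbp3 with Gbp6) to 0.97 (Gbp2 with Iigp1). Gbp6 is the member whose reads are shared the most with other genes. By Pearson's r with the members' mean log2 CPM over 16 libraries, the 10 most alike of 17260 other genes were Irgm2 (0.99), Parp14, H2-T22, Oasl2, Samhd1, Dtx3l, Tgtp2, Ctss, Daxx and Zbp1 (0.93). Over the 13 libraries with more genes detected, 4 of these 10 remained, Irgm2, Parp14, Oasl2 and Samhd1.

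Macrophages and other cells also express these GTPases, and the summed markers of such cells were mostly higher in Sirt2-/- libraries. The 9 macrophage and monocyte markers (Lyz2, Csf1r, C1qa, C1qb, C1qc, Adgre1, Cd14, Itgam and Cd68) summed to 6.71 to 33.1 CPM in Sirt2-/- and 1.5 to 15.1 CPM in WT CD4+ TILs, and to 8.94 to 36.5 and 2.24 to 9.04 CPM in CD8+ TILs. All 7 that could be tested lay higher in Sirt2-/- mice in each cell type, with median log2 fold changes of 1.33 in CD4+ and 2.36 in CD8+ TILs. None was called by edgeR. A higher level at an unadjusted p below 0.05 was reached by 0 and 3 of them, and by 0.995% and 2.18% of all genes. In each library of few genes 7 or 8 of the 9 were at 0. In Sirt2-/- CD4+ TILs the library with the largest members' sum, replicate 1 with 6604 CPM, had the lowest sum of these markers, 6.71 CPM, and replicate 3, with the highest marker sum, had the lowest members' sum. In Sirt2-/- CD8+ replicate 1, which was highest for all members, the markers summed to 9.19 CPM. In the other groups the lowest sums stood together: replicate 1 had the lowest markers' and members' sums in WT CD4+ (1.5 and 1798 CPM) and WT CD8+ TILs (2.24 and 902 CPM), both libraries of few genes, and so had replicate 3 in Sirt2-/- CD8+ TILs (8.94 and 2288 CPM). The 4 dendritic cell markers summed to at most 1.18 CPM in any library, with Clec9a and Cd209a at 0 in all 16. Fibroblast and endothelial markers summed to 64.5 to 181 CPM in Sirt2-/- and 95 to 116 CPM in WT CD4+ TILs, and 40.5 to 105 and 36.2 to 48.2 CPM in CD8+ TILs. In this list Cdh5 and Dcn were at 0 in 10 and 11 of the 16 libraries. Col1a1, Col1a2 and Col3a1 reached at most 25.2, 16.8 and 18.7 CPM, so the sums largely follow Pecam1 alone. No marker of T, B, NK, erythroid or melanoma cells was called between genotypes by edgeR. The 5 melanoma markers summed to 84.2 CPM in WT CD4+ replicate 1, the lowest WT CD4+ library for 10 of 10 members. In Sirt2-/- CD4+ replicate 4 they summed to 27.5 CPM, all of it Dct, and in the other libraries to at most 11.5 CPM. The part of other cells in the members' values was not tested.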

How the data were processed

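Total RNA (1 ng per library) was sequenced by the authors after ribosomal RNA depletion with a strand-specific kit. The authors deposited 1 table of counts, whole numbers of reads per gene without normalization, and the submitters' processing notes name STAR, HTSeq and mm10 without versions. All 55450 gene identifiers matched GENCODE M21 (GRCm38). The members and gene lists were chosen with earlier results of these data known.

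Tests used edgeR 4.0.16 under R 4.3.3 (TMM scaling, filterByExpr, robust quasi-likelihood fits, two-sided) on the 8 libraries of a comparison, or on all 16 for the interaction, with Benjamini-Hochberg adjustment over all genes and a threshold of 0.05. CPM were scaled by TMM over 16 libraries, with a prior count of 2 before logs, and values per kilobase used merged GENCODE exons. Named genes were the 10 members, Sirt2, list genes that passed the test, Ifng, Irf1 and the 10 most alike genes, and others were named after their values were seen. The study's methods give 4 per group but do not say whether each library was 1 mouse or a pool, and p-values measure only the spread between these samples. The fits were tested on simulated data: where 200 genes had a true log2 change of 1, 0% were recovered for Sirt2-/- against WT in CD4+ TILs, of 13671 genes, and 33% in CD8+ TILs, of 14698 genes. These 200 were drawn at random from all genes past the filter. Counts were drawn independently, without the loss of genes in some libraries, so the shares are not those of genes at the members' levels. Alternatives were DESeq2 1.42.0, limma 3.58.1 (voom with quality weights), other size factors, filters and prior counts, 1 model over 16 libraries, a replicate block and leaving out libraries. Protein sequences were not used here, and 1 gene of the lists is not reported here.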

Additional observations from a re-analysis of the deposited data

Results flagged for a closer look

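For each member and for their sum, the highest or lowest library of each group was compared with the rest by Dixon's test. Of 44 groups 6 held a library that stood apart, where chance gives about 2.2 (1 in 20 groups). The members vary together and share libraries, so the 6 are not independent of each other and the excess cannot be judged from these numbers. All 6 were in the 3 libraries with under 15000 genes detected. Sirt2-/- CD4+ replicate 4 stood above the other 3 for Gbp3 (888 CPM, next 400.3 CPM) and below them for Gbp6 (48.2 CPM, next 101 CPM). WT CD8+ replicate 1 stood below the others for Gbp3 (59.3 CPM), Gbp7 (200.0 CPM) and Iigp1 (16.5 CPM). WT CD4+ replicate 1 did so for Iigp1 (66.7 CPM, next 287 CPM).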

How the results depend on the processing

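Among values that leave out 1 library or change 1 setting, the members' fold changes kept direction and call in 169 of 170 values for Sirt2-/- against WT in CD4+ TILs and in 170 of 170 in CD8+ TILs. Without the libraries numbered 1 of both genotypes, an alternative added after seeing the data, Irgm1 stood at -3.23e-05 in CD4+ TILs. Between cell types, 138 of 160 (WT) and 144 of 160 (Sirt2-/-) kept both, and the other 22 and 16 passed the threshold only under the alternative. The cause was not tested.

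Genes called for Sirt2-/- against WT in CD4+ TILs numbered 7 by DESeq2, 4 by limma-voom and 6 without libraries of few genes, against 0. In CD8+ TILs they numbered 28, 4 and 7, against 1, and 5 without a filter, 8 without the libraries numbered 1, and 0 to 7 without each library in turn. Between WT cell types they were 2651 by DESeq2, 5481 by limma-voom, 811 with all 16 libraries in 1 model, 4394 without libraries of few genes and 1022 to 2767 without each library, against 1765. Members called were 5, 10, 3, 9 and 3 to 6, against 3. Without libraries of few genes 9 did not overlap, as 20.4% of all genes (10% with all libraries), and 3 to 9 members did not without each library. In Sirt2-/- mice 1339, 4474, 781, 4250 and 111 to 4250 genes were called, and 907 with at least 10 counts in every library, against 354. Members called were 3, 3, 2, 2 and 0 to 2, and 3 with at least 10 counts, against 0. Members that did not overlap between genotypes were 3 to 8 (CD4+) and 5 to 9 (CD8+) without each library, and 3 to 7 between Sirt2-/- cell types. The share of all genes was not counted without each library, and groups of fewer libraries overlap less often for any gene. Without libraries of few genes it was 5.55%, 2.59% and 15.5%, against 1.31%, 1.74% and 6.22% with all libraries. The leave-one-out counts are therefore not read as a result about the members. Of the 10 most alike genes 4 stayed.

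The difference of the genotype change between cell types was near 0 and turned sign in 35 of 230 values, with 2 genes called by DESeq2. Gbp4 was 0.31 by limma-voom, 0.025 with at least 10 counts and 0.17 without libraries of few genes, Gbp6 was -0.099 by limma-voom and -0.20 without libraries of few genes, where Irgm1 was -0.012. Without each library in turn the ranges were -0.051 to 0.72 (Gbp2), -0.066 to 0.55 (Gbp3), -0.27 to 0.25 (Gbp4), -0.13 to 0.52 (Gbp5), -0.17 to 0.25 (Gbp6), -0.092 to 0.19 (Gbp7), -0.090 to 0.36 (Igtp), -0.22 to 0.45 (Irgm1) and -0.11 to 0.59 (Iigp1).

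The replicate number as a block gave 0 members called between genotypes, 7 in WT and 0 in Sirt2-/- mice between cell types, with 4 genes called in CD8+ TILs between genotypes, 1619 and 108 between cell types, and -0.0014 for the difference in Irgm1. The numbers were not taken to pair the samples, since correlations were not over 0.1 for every pair: deviations of same-numbered WT CD4+ and CD8+ libraries correlated at 0.098 to 0.138, each best with its own number, and of Sirt2-/- libraries at -0.022 to 0.153. The lowest count of any member in any library was 545 (Iigp1, WT CD8+ replicate 1), in reads, which are not independent molecules, so depth alone does not give its counting error.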
